A study of Mus musculus with 24 samples.

Results

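The 9 genes described here encode parts of the inflammasome and of pyroptosis: the sensors Nlrp3 and Aim2, the adaptor Pycard, the caspases Casp1, Casp4 and Casp8, the pore protein Gsdmd, the cytokine Il18 and its inhibitor Il18bp. They were chosen by symbol as a core of this pathway, with earlier results of these data known. All 9 were found among the 36333 genes of the deposited table. RNA was sequenced from 24 male mice at 5 days post injury (dpi), with 1 library per mouse. The labels give their age as 12 to 16 weeks, and the methods give a narrower range within it. In 4 groups of 5 mice, traumatic brain injury (TBI) was induced by controlled cortical impact (CCI), a mechanical blow to the exposed cortex. These groups received vehicle, PLX3397 (290 mg/kg in chow, started 90 min after CCI), Anakinra (100 mg/kg subcutaneously at 5 min after CCI and then once a day until 72 h) or PLX3397+Anakinra. In the sham group, 4 mice had anesthesia and a skin incision without opening of the skull, and received vehicle chow and saline, so that the comparison of vehicle with sham also holds the craniotomy. PLX3397 inhibits CSF1R, the receptor on which microglia and many macrophages depend for survival. Anakinra is a recombinant form of the natural IL-1 receptor antagonist and blocks IL1R1. The labels give the strain as C57BL6N and the tissue as cortex, whereas the methods give C57BL/6JRj and a quadrant of the brain with cortex, striatum, dorsal hippocampus and thalamus.

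An inflammasome is assembled in the cytosol when a sensor meets its trigger. NLRP3 responds to disturbed ion balance and cell damage, and AIM2 binds DNA that is out of place in the cytosol. Through the adaptor ASC, encoded by Pycard, the sensor gathers caspase-1, which matures IL-1β and IL-18 and cleaves gasdermin D into a pore that can end in the lytic death called pyroptosis. In the brain this machinery is best known from microglia and infiltrating myeloid cells. Transcript levels measure neither the cleavage of caspase-1 or gasdermin D nor the release of cytokines.

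The genes lie on 5 chromosomes of GRCm38, as annotated in GENCODE. Casp1 (chr9:5298517-5307265) and Casp4 (chr9:5308828-5336783) are neighbours on the same strand, and Il18 (chr9:50554827-50581840) lies on the same chromosome. Pycard (chr7:127989708-127993867) and Il18bp (chr7:102014885-102018690) are read from the minus strand, the other 7 genes from the plus strand. Aim2 (chr1:173350879-173466040) and Casp8 (chr1:58795374-58847503) share chromosome 1, Nlrp3 is at chr11:59541568-59566956 and Gsdmd at chr15:75862327-75867408. The library protocol describes no marking of the strand, so reads from overlapping genes on opposite strands cannot be told apart. Of the exonic bases of Il18bp, 80 (2.6%) also lie in Numa1 on the other strand, which was at 49.9 TPM on average, and of those of Pycard, 485 (12.8%) lie in Gm45205, which the table does not list. The values of these 2 genes are uncertain for this reason. How far depends also on the level of the other gene and was not estimated.

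Promoter sequences (RefSeq, GRCm38.p6; 250 bases before to 50 bases after each start) were found for 8 of the genes, all but Gsdmd. They were searched on both strands for 5 short motifs of factors that act in myeloid and inflammatory gene control. The core of PU.1, the lineage factor of macrophages and microglia (GAGGAAGT), was found for Aim2 at base -113 and, in reverse, for Pycard at base -44, counted from the start. It is held by 3.2% of all 32851 promoters. The core of NF-kappaB (GGGANNTCC, in 4.3% of all promoters) was found for Casp4 only, with overlapping matches at bases -92 and -91 and a further match at base -39 from the more upstream of its starts. The windows upstream of these 3 starts are shown since they hold all matches, which are in capitals. Bases that lie in an annotated exon of the same gene were left out at the right end.
Aim2 (chr1:173420454-173420570, plus strand): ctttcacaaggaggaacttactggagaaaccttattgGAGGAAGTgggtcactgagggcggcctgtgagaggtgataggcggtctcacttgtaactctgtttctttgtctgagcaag
Pycard (chr7:127993868-127994017, minus strand): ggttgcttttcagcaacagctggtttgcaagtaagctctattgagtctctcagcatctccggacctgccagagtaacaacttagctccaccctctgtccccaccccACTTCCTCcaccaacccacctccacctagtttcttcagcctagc
Casp4 (chr9:5308699-5308827, plus strand): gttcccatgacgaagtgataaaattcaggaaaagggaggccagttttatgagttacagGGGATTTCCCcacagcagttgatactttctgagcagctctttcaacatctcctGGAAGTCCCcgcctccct
The ISRE core GAAANNGAA, the GAS element TTCNNNGAA and the AP-1 site TGANTCA, which occur in 8.56%, 8.3% and 7.81% of all promoters, were in no window of the 8 genes. These matches are descriptions of letters in a window, and no binding was measured.

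Values are listed as TPM, in which reads are divided by the length of the gene and every library adds up to 1000000. Levels can then be compared between genes. The methods state that CLC calls this unit CPM, a name also used for values without division by length. Comparisons of levels between genes rest on the division by length, which was not checked. Between 22160 and 23249 genes were above 0 in a library. Read counts are not given, the depth is unknown, and the precision of a value rests on the spread between mice. Fold changes are differences of group means of log2(TPM + 1), which understates the change of genes at low TPM. The 17267 genes that averaged 0.5 TPM or more were tested in limma, which included all 9 genes of the pathway core, and a gene was called at a Benjamini-Hochberg adjusted p below 0.05. Neurons, astrocytes, oligodendrocytes, microglia and endothelium were all present by their markers, whereas 7 of 8 lymphocyte markers, all except Cd4, and the neutrophil genes Ly6g, Retnlg and Camp were below the limit for testing. The vehicle mice alone carry the letter B in their names, which the labels do not explain. If it marks a batch, this batch and the vehicle group cannot be told apart.

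The comparison of vehicle with sham asked how the injury changed the pathway. All 9 genes rose, against 26.6% of all genes tested. In TPM the increase ranged from 1.27-fold for Il18 to 12.2-fold for Casp4. No vehicle mouse overlapped with a sham mouse for any of the 9, which was true of 21.7% of all genes in this direction. The median log2 fold change was 1.59, beside -0.013 over all genes.

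The sensors stood at low levels in both groups. For Nlrp3 the vehicle mice had 2.29, 2.76, 3.03, 3.85 and 4.32 TPM and the sham mice 0.627, 0.768, 0.81 and 0.866 TPM. The increase was 4.23-fold in TPM and 1.25 ± 0.12 on the log2 scale (SE, adjusted p = 3.31e-09). For Aim2 the vehicle mice had 3.27, 3.7, 3.86, 3.91 and 4.55 TPM and the sham mice 1.13, 1.34, 1.48 and 1.6 TPM. Aim2 therefore rose less than Nlrp3 in proportion, by 2.78-fold in TPM and 1.02 ± 0.11 on the log2 scale (adjusted p = 1.47e-08), a difference between the genes that was not tested.

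Pycard encodes ASC, the adaptor that both sensors need. Its values were 18.3, 21.3, 24, 25.6 and 28.7 TPM after TBI with vehicle and 2.54, 2.93, 3.06 and 4.12 TPM after sham surgery. The lowest vehicle mouse stood far above the highest sham mouse. With 2.56 ± 0.13 on the log2 scale (adjusted p = 5.39e-14) and 7.46-fold in TPM, Pycard had the largest change of the 9 genes on the log2(TPM + 1) scale, whereas Casp4 had the largest in TPM.

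Among the caspases, Casp4 had the lowest level in sham tissue. Casp4 is the mouse gene of caspase-11, which binds bacterial lipopolysaccharide in the cytosol and cleaves gasdermin D without a sensor of the NLRP3 type. It was listed at 0.277, 0.3, 0.341 and 0.387 TPM in sham mice and at 2.71, 3.6, 4.11, 4.73 and 4.79 TPM in vehicle mice, without overlap. On the log2(TPM + 1) scale the change was 1.89 ± 0.16 (adjusted p = 3.15e-10). Casp1, the caspase of the classical inflammasome, had 7.78, 8.25, 9.42, 10.1 and 10.6 TPM with vehicle and 1.69, 1.82, 2.33 and 3.56 TPM in sham mice. Its sham value of 3.56 TPM (mouse J15) stood above the other sham mice, and the groups were still separate, with a log2 fold change of 1.64 ± 0.14 (adjusted p = 3.92e-10). Casp8, which starts apoptosis and can also cleave gasdermin D, had 9.17, 9.83, 9.89, 11.5 and 13.2 TPM with vehicle and 2.14, 2.48, 2.5 and 2.63 TPM in sham mice. The sham values lay close together, and Casp8 rose by 1.76 ± 0.11 on the log2 scale (adjusted p = 1.14e-12).

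Gsdmd, the pore former, had 9.14, 11.6, 12.7, 12.7 and 13.9 TPM with vehicle and 2.97, 3.06, 3.42 and 3.67 TPM in sham mice, a change of 1.59 ± 0.16 on the log2 scale (adjusted p = 1.20e-08). The cytokine Il18 was the most abundant of the 9 in sham tissue. It had 21.1, 22.1, 23.2 and 24.1 TPM in sham mice and 25.4, 28.2, 28.3, 30.2 and 31.5 TPM with vehicle. Il18 thus changed least, by 0.33 ± 0.07 on the log2 scale (adjusted p = 2.42e-04). Its soluble inhibitor Il18bp, which binds IL-18 and keeps it from its receptor, rose from 6.36, 6.86, 6.96 and 7.51 TPM to 10.9, 12.8, 13, 13.3 and 14.9 TPM, a change of 0.82 ± 0.09 (adjusted p = 2.37e-08).

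**Figure D1:**
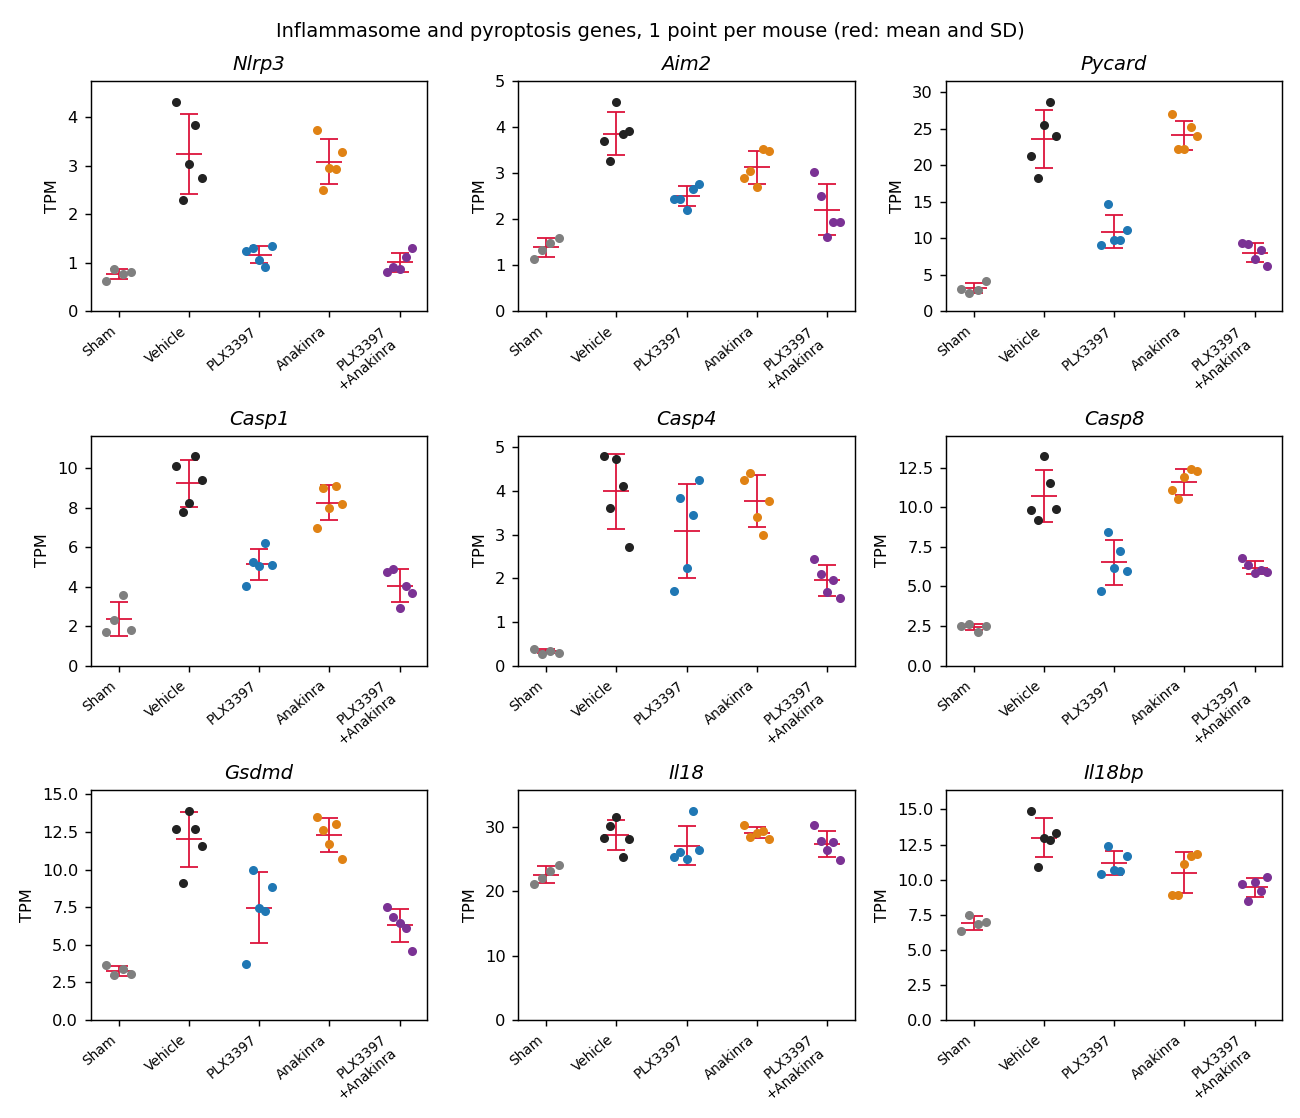
TPM of the 9 genes in each of the 24 mice by group, with the mean and SD in red and each axis starting at 0. Every vehicle mouse lies above every sham mouse in all 9 panels, and for Nlrp3, Aim2, Pycard, Casp1 and Casp8 every PLX3397 mouse lies below every vehicle mouse.

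PLX3397 was compared with vehicle to see how the pathway differed with this drug. With PLX3397, 6 of the 9 genes fell (Pycard, Nlrp3, Casp1, Gsdmd, Casp8 and Aim2) and none rose, while 6.66% of all genes tested fell. The groups did not overlap for 5 of them, all but Gsdmd, as was the case for 4.91% of all genes in this direction. Casp4, Il18 and Il18bp did not pass the test. The median log2 fold change of the 9 genes was -0.65, beside 0.006 over all genes.

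Nlrp3 had 0.909, 1.05, 1.24, 1.3 and 1.34 TPM with PLX3397, which lay between the sham and the vehicle values. Its mean was 1.17 ± 0.183 TPM (SD, n = 5) against 3.25 ± 0.825 TPM with vehicle, and the log2 fold change was -0.95 ± 0.11 (SE, adjusted p = 1.33e-06). Aim2 had 2.21, 2.44, 2.45, 2.65 and 2.77 TPM, again below all vehicle mice, with a change of -0.47 ± 0.10 (adjusted p = 0.00291). Pycard had 9.13, 9.71, 9.71, 11.2 and 14.7 TPM with PLX3397. Even the mouse at 14.7 TPM (J02) was below the lowest vehicle mouse, and Pycard fell by 1.05 ± 0.13 on the log2(TPM + 1) scale (adjusted p = 1.75e-06). Its fall in TPM was 2.17-fold, beside 2.79-fold for Nlrp3.

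Of the 3 caspases, Casp1 and Casp8 fell and Casp4 was not called, and differences between these genes were not tested. Casp1 had 4.03, 5.07, 5.1, 5.24 and 6.2 TPM and Casp8 had 4.71, 5.98, 6.16, 7.23 and 8.45 TPM with PLX3397. Both stood below the vehicle range and fell by 0.74 ± 0.13 (adjusted p = 3.52e-04) and by 0.65 ± 0.10 (adjusted p = 8.08e-05) on the log2 scale. Casp4 had 1.72, 2.23, 3.45, 3.83 and 4.24 TPM, where 3 of 5 mice lay within the vehicle range of 2.71 to 4.79 TPM. The difference of -0.31 ± 0.15 (95% interval -0.62 to 0.00, adjusted p = 0.219) did not pass the test, and without mouse J01, the lowest, it was -0.17 (adjusted p = 0.547).

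Gsdmd spread more with PLX3397 than in any other group, with 3.76, 7.24, 7.43, 8.84 and 10 TPM. The lowest of these mice, J01, was close to the sham mice and the highest, J02, within the vehicle range. The change was -0.66 ± 0.16 (adjusted p = 0.00606). It was -0.47 without J01 (adjusted p = 0.0127), and the adjusted p was 0.0634 when only the 2 compared groups were in the fit. Il18 had 25.1, 25.4, 26.1, 26.5 and 32.5 TPM, around the vehicle range of 25.4 to 31.5 TPM, and its interval for the change reached from -0.22 to 0.05 (adjusted p = 0.493). For Il18bp, with 10.4, 10.6, 10.7, 11.7 and 12.4 TPM, the difference of -0.20 ± 0.08 had an adjusted p of 0.145, which became 0.0422 without the vehicle mouse J17B.

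Markers of microglia moved with the same drug. All 12 of them rose after TBI (26.6% of all genes) and all 12 fell with PLX3397 (6.66% of all genes), with a median log2 fold change of -1.35. Their summed level was 395 to 412 TPM in sham mice, 1709 to 2251 TPM with vehicle and 762 to 1174 TPM with PLX3397, and none was at 0 in any library. The 10 monocyte and neutrophil markers summed to 0.66 to 4.19 TPM in sham, 8.93 to 41.8 TPM with vehicle and 16.1 to 57.9 TPM with PLX3397. The highest mean of the 10 in both injured groups was that of S100a8, at 11.5 ± 6.74 TPM with vehicle and 18.9 ± 9.74 TPM with PLX3397 (SD). The sums therefore say little about the monocyte genes. Of the 6 that could be tested, Ccr2 alone fell, from 2.23 ± 0.589 to 0.8 ± 0.351 TPM. The neutrophil gene Ly6g was at 0 in all 5 PLX3397 libraries and in 4 of 5 vehicle libraries. In bulk tissue, fewer cells of a type and less RNA per cell cannot be told apart. The part of microglial number in the fall of the 6 genes was not tested.

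Anakinra was given to block the receptor of IL-1, one product of the inflammasome. None of the 9 genes changed against vehicle in limma, and 0.116% of all genes did in either direction. At an unadjusted p below 0.05 there were 2, Il18bp and Aim2, beside 2148 of all 17267 genes. Il18bp had 8.89, 8.93, 11.1, 11.7 and 11.8 TPM, of which 2 were below the vehicle range of 10.9 to 14.9 TPM, and differed by -0.29 ± 0.08 (adjusted p = 0.136). Aim2 had 2.7, 2.9, 3.04, 3.48 and 3.53 TPM and differed by -0.23 ± 0.10 (adjusted p = 0.334). The other 7 genes overlapped broadly with vehicle. Pycard, for example, had 22.2, 22.3, 24, 25.2 and 27 TPM, with an interval of -0.22 to 0.30 for the log2 fold change. The interval for Nlrp3, at 2.51, 2.93, 2.96, 3.29 and 3.74 TPM, was -0.28 to 0.19, and that for Casp1, at 6.97, 7.98, 8.21, 9.02 and 9.11 TPM, was -0.41 to 0.13. The remaining levels were 2.99 to 4.4 TPM for Casp4, 10.5 to 12.4 TPM for Casp8, 10.7 to 13.5 TPM for Gsdmd and 28.2 to 30.3 TPM for Il18. None of the 12 microglia markers was called either, and their summed level was 1857 to 2094 TPM.

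With PLX3397+Anakinra, 8 of the 9 genes fell against vehicle, all but Il18, while 9.6% of all genes tested fell. None of the 8 overlapped between the groups, which 6.62% of all genes did not in this direction. The vehicle mice are the same as in the comparisons of the single drugs, so the 3 comparisons are not independent. In TPM, Nlrp3 fell 3.23-fold and Pycard 2.93-fold. Pycard values of 6.18, 7.14, 8.37, 9.24 and 9.32 TPM gave a log2 fold change of -1.44 ± 0.13 (adjusted p = 5.70e-09). Nlrp3 was at 0.819, 0.877, 0.912, 1.12 and 1.3 TPM (-1.07 ± 0.11, adjusted p = 1.05e-07), with its lowest mouse within the sham range. Casp1 was at 2.91, 3.69, 4.05, 4.74 and 4.91 TPM (-1.02 ± 0.13, adjusted p = 2.43e-06).

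Casp4 passed the test with the combination. It had 1.56, 1.69, 1.96, 2.1 and 2.44 TPM, all below the lowest vehicle mouse at 2.71 TPM, and changed by -0.75 ± 0.15 (adjusted p = 8.59e-04). Gsdmd had 4.56, 6.09, 6.42, 6.88 and 7.49 TPM (-0.84 ± 0.16, adjusted p = 3.70e-04) and Casp8 had 5.83, 5.9, 6.05, 6.37 and 6.79 TPM (-0.70 ± 0.10, adjusted p = 1.94e-05). The Casp8 values lay closer together than those with PLX3397 alone. Aim2 ranged from 1.62 to 3.03 TPM, the widest range of this gene in any group, and changed by -0.61 ± 0.10 (adjusted p = 9.32e-05). Il18bp had 8.46, 9.19, 9.67, 9.84 and 10.2 TPM (-0.41 ± 0.08, adjusted p = 8.39e-04), and Il18 had 24.8, 26.5, 27.7, 27.9 and 30.3 TPM. For Il18 the interval against vehicle was -0.20 to 0.07 (adjusted p = 0.56). The microglia markers summed to 673 to 891 TPM in this group. Of these, 12 of 12 were lower than with vehicle, beside 9.6% of all genes. Their median log2 fold change was -1.48, beside 0.014 over all genes. The monocyte and neutrophil markers summed to 12.5 to 27.7 TPM, and 3 of the 6 tested fell, beside the same 9.6% of all genes. S100a8 again had the highest mean of these markers, at 10.7 ± 4.3 TPM (SD) beside 11.5 ± 6.74 TPM with vehicle. The sum therefore says little about the monocyte genes, of which Ccr2 stood at 0.596 ± 0.198 TPM. The part of these cell types in the result was not tested.

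**Figure D2:**
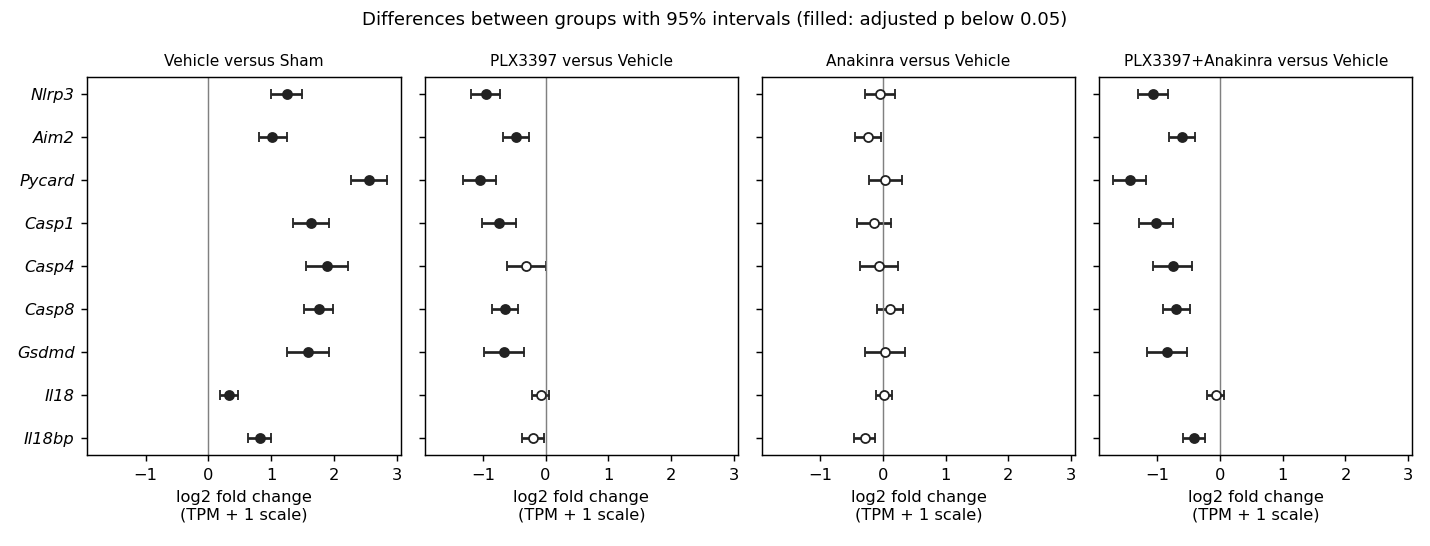
Log2 fold change with 95% interval of the 9 genes in 4 comparisons on one common scale, with filled points at an adjusted p below 0.05. All 9 points are filled for vehicle against sham, 6 for PLX3397, 0 for Anakinra and 8 for PLX3397+Anakinra against vehicle.

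Direct comparisons among the drug groups asked whether the second drug added to the first. Between PLX3397+Anakinra and PLX3397, none of the 9 genes was called in limma, and 0.151% of all genes were in either direction. At an unadjusted p below 0.05 there were 1159 of all 17267 genes, 652 of them lower, and 4 of the 9, all lower with the combination: Pycard (-0.39 ± 0.13, adjusted p = 0.378), Casp4 (-0.44 ± 0.15, adjusted p = 0.405), Il18bp (-0.22 ± 0.08, adjusted p = 0.548) and Casp1 (-0.28 ± 0.13, adjusted p = 0.719). Only Il18bp did not overlap between these groups, as 0.764% of all genes in this direction. Without the PLX3397 mouse J01 the difference of Casp4 was -0.57 (adjusted p = 0.0622). Against Anakinra, 7 genes were lower with the combination, all but Il18 and Il18bp, and 8.1% of all genes were. The smallest of these 7 changes, that of Aim2 (-0.38 ± 0.10, adjusted p = 0.0141), was not called without the combination mouse J09 (adjusted p = 0.0536) or with only the 2 groups in the fit (adjusted p = 0.0515). PLX3397 was lower than Anakinra for Pycard, Nlrp3, Casp8, Gsdmd and Casp1, 5 of the 9, beside 5.41% of all genes.

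The interaction term tested whether the combination differed from the sum of the 2 single effects on the log2 scale. It was called for none of the 9 genes and for 0% of all genes in limma, where 1395 genes had an unadjusted p below 0.05. Pycard was the 1 gene of the 9 below that limit, at -0.43 ± 0.18 (adjusted p = 0.558). Over all 5 groups, limma's F-test called 9 of 9 genes and 51.9% of all genes.

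Compared with sham, the genes stayed raised in most treated groups. PLX3397 was higher than sham for 8 of the 9 (22.7% of all genes), Anakinra for 9 (25.1%) and PLX3397+Anakinra for 8 (20.7%). The gene that missed the call was Nlrp3 in both groups that received PLX3397. With PLX3397 alone its difference was 0.29 ± 0.12 (adjusted p = 0.0501), and it was called under 11 of 29 other settings. With the combination it was 0.18 ± 0.12, with an interval of -0.07 to 0.43 (adjusted p = 0.253). All 9 genes were without overlap to sham in the PLX3397 group, where the share of all genes was 18.7%, and in the Anakinra group, where it was 21.3%. With the combination this held for 7 genes (16.9% of all genes), and Nlrp3 and Casp1 overlapped.

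The 9 genes kept different shares of their rise. The share was taken as the distance of a mouse from the sham mean, in percent of the distance between the vehicle and sham means in TPM. Nlrp3 kept 16.1 ± 7.36% with PLX3397 and 9.58 ± 8.08% with the combination (SD, n = 5 each), the lowest shares of the 9. Pycard kept 37.8 ± 11% and 23.9 ± 6.68%, and Casp1 40.4 ± 11.2% and 24.9 ± 11.8%. Casp4 kept more, 75.6 ± 29.4% with PLX3397 and 44.3 ± 9.5% with the combination. Casp8 was at 49.2 ± 17% and 45.3 ± 4.77%, and Gsdmd at 47.9 ± 27% and 34.5 ± 12.6%. With Anakinra the means ran from 58.8% for Il18bp to 111% for Casp8. Since the rise of Il18 was small, its shares spread from 40.7% to 161% with PLX3397 and say little. These shares are descriptions, and differences between genes were not tested.

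**Figure D3:**
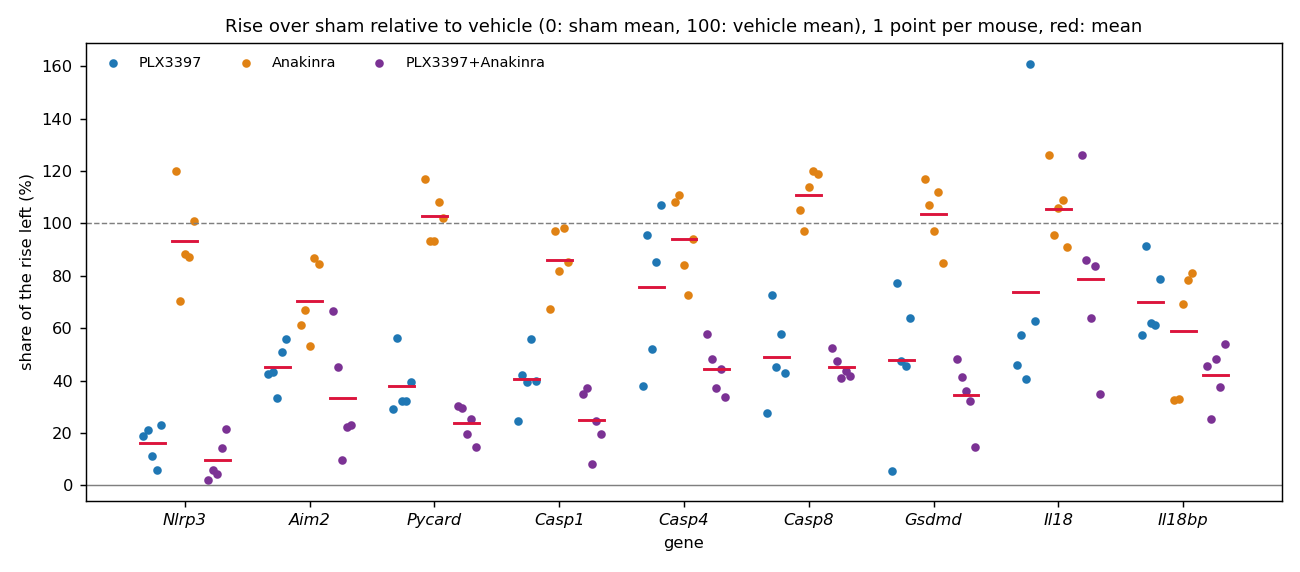
Share of the rise over sham that each treated mouse kept, in percent, for the 9 genes, with 0 at the sham mean, 100 at the vehicle mean and red bars at the group means. The points of Nlrp3 lie between 2.05% and 23.2% in both groups with PLX3397, and those of Anakinra lie at 32.4% to 126% over all 9 genes.

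The order of the groups was the same for several genes. For Aim2, Casp1 and Casp4 the mean levels ascended from sham through PLX3397+Anakinra, PLX3397 and Anakinra to vehicle, and Nlrp3 had this order too. For Pycard, Casp8 and Gsdmd vehicle and Anakinra changed places. Among these 7 genes, neighbours that limma did not call different were sham and the combination for Nlrp3 (adjusted p = 0.253), and, in all 7, vehicle and Anakinra (adjusted p of 0.91 for Nlrp3 and 0.945 for Gsdmd, for example) and PLX3397 and the combination (0.921 for Nlrp3, 0.978 for Casp8). The step from PLX3397 to the next higher group was called for Nlrp3, Pycard, Casp1, Casp8 and Gsdmd. It was not called for Aim2 (adjusted p = 0.186) and Casp4 (adjusted p = 0.36). For Il18bp no step above the one from sham to the combination was called, and for Il18 none above the one from sham to PLX3397.

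The balance between genes of the pathway was read as the ratio of their TPM within a library. These pairs were chosen after the values had been seen and carry no test. The ratio of Il18bp to Il18, inhibitor to cytokine, was 0.306 ± 0.023 in sham (SD, n = 4), 0.455 ± 0.067 with vehicle, 0.416 ± 0.055 with PLX3397, 0.361 ± 0.055 with Anakinra and 0.347 ± 0.044 with the combination. It was above the sham range of 0.289 to 0.340 in all vehicle mice and overlapped with it in the 3 drug groups. Casp4 to Casp1 was 0.152 ± 0.059 in sham and 0.437 ± 0.106 with vehicle, and 0.597 ± 0.179, 0.463 ± 0.102 and 0.486 ± 0.066 with PLX3397, Anakinra and the combination. No injured mouse came down to the sham range for this pair. Aim2 to Nlrp3, the DNA sensor to the damage sensor, was 1.811 ± 0.190 in sham, 1.241 ± 0.290 with vehicle and 1.032 ± 0.189 with Anakinra, but 2.189 ± 0.414 with PLX3397 and 2.305 ± 0.912 with the combination. Aim2 and Nlrp3 both fell with PLX3397, to 0.65 and 0.36 of the vehicle mean in TPM.

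**Figure D4:**
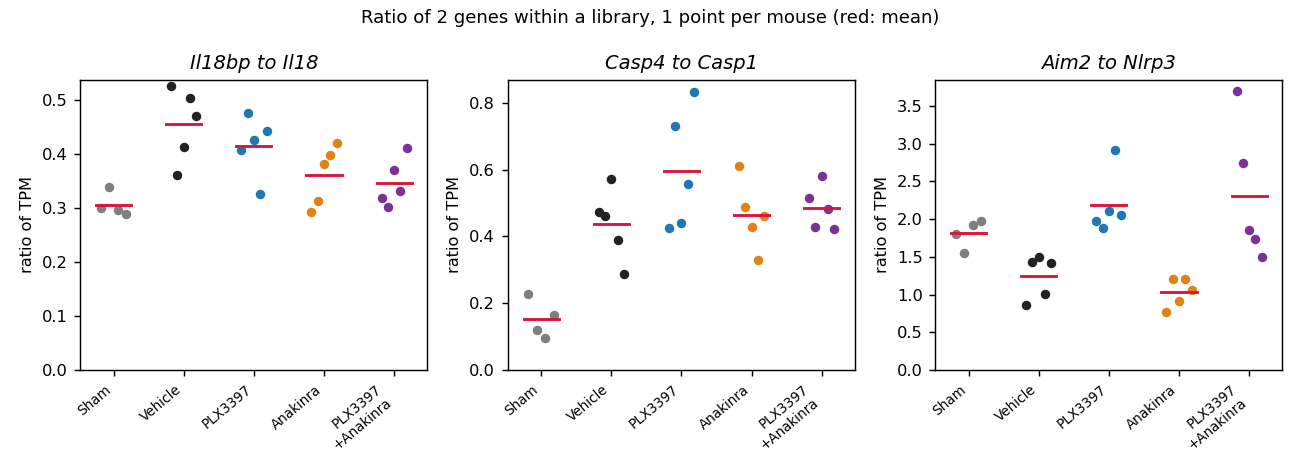
Ratios of TPM within a library for 3 pairs of genes by group, 1 point per mouse with the group mean in red and axes from 0. Casp4 to Casp1 is 0.096 to 0.229 in sham mice and at least 0.288 in every injured mouse.

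The wider pathway was read from 3 lists. Of 20 further sensors and activators of inflammasomes, 15 were expressed highly enough to be tested. After TBI with vehicle, 13 of them rose, beside 26.6% of all genes. The 1 that fell was Nlrp6 (-0.35 ± 0.13, adjusted p = 0.0236), beside 27.7% of all genes that fell. The NAIP receptors, which recognise bacterial flagellin and secretion needles, rose strongly. Naip5 went from 0.785 ± 0.155 to 7.22 ± 1.51 TPM (2.18 ± 0.11, adjusted p = 4.91e-14) and Naip2 from 0.819 ± 0.129 to 6.86 ± 0.983 TPM. These genes are related in sequence, and whether reads were split between them was not tested. Their partner Nlrc4 was below the limit for testing at 0.416 ± 0.147 TPM with vehicle. With PLX3397, 8 of the 15 fell, beside 6.66% of all genes. Among them were Naip6 (-0.97 ± 0.11, adjusted p = 5.68e-07), Nlrp1b (-0.53 ± 0.09, adjusted p = 2.20e-04), the ATP-gated channel gene P2rx7 (-0.62 ± 0.08, adjusted p = 3.55e-06) and Sting1, listed as Tmem173 (-0.66 ± 0.11, adjusted p = 1.95e-04).

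With the combination 12 of these 15 fell, beside 9.6% of all genes. The DNA sensor Cgas, listed as Mb21d1, went from 2.7 ± 0.503 to 1.31 ± 0.111 TPM (-0.67 ± 0.12, adjusted p = 2.87e-04), and Zbp1, a sensor of nucleic acids in Z form, from 5.19 ± 1.25 to 2.45 ± 0.411 TPM (-0.82 ± 0.17, adjusted p = 0.00131). Zbp1 stood at 8.64 ± 1.7 TPM with Anakinra, where the difference of 0.65 ± 0.17 from vehicle was not called (adjusted p = 0.109). Gbp2 and Gbp5, guanylate-binding proteins that open the way to caspase-11, fell with the combination (-0.44 ± 0.14, adjusted p = 0.0292, and -0.40 ± 0.13, adjusted p = 0.0394), whereas Gbp3 was not called (-0.25 ± 0.14, adjusted p = 0.228). With PLX3397 alone Gbp2, Gbp3 and Gbp5 were not called (adjusted p of 0.697, 0.633 and 0.807). Between the combination and PLX3397, 0 of the 15 genes were called, beside 0.151% of all genes in either direction. With Anakinra 0 of the 15 were called against vehicle, beside 0.116% of all genes. Both counts are near these shares and say little about the list. The median over the list was -0.36 with PLX3397 and -0.58 with the combination.

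Of 18 further executioners and regulators of cell death, 13 were tested, and 12 of these rose after TBI, beside 26.6% of all genes. The exception was Gsdme, listed as Dfna5, a gasdermin cut by caspase-3, at 12.5 ± 0.431 TPM in sham and 11.7 ± 1.32 TPM with vehicle (adjusted p = 0.334). Gsdmd was thus the only one of the 2 tested gasdermins that rose, and Gsdma, Gsdma2, Gsdma3, Gsdmc and Gsdmc2 were too low to be tested. With PLX3397 4 of the 13 were lower (6.66% of all genes) and with the combination also 4 (9.6% of all genes). Ninj1, Ripk1 and Cflar were among them in both cases. Ninj1, which ruptures the membrane of dying cells, was at 32.6 ± 2.37 TPM in sham and 83.1 ± 9.66 TPM with vehicle. It reached 62.1 ± 7.7 TPM under PLX3397 and 52.6 ± 6.79 TPM when both drugs were given. The necroptosis genes Ripk3 (2.89 ± 1.37 TPM) and Mlkl (1.66 ± 0.784 TPM with vehicle) rose after TBI from 0.0985 ± 0.0404 and 0.273 ± 0.195 TPM. With PLX3397 they stood at 3.16 ± 0.722 and 1.99 ± 0.681 TPM, which was not called (adjusted p of 0.681 and 0.565). The median over the list was -0.05 with PLX3397 and -0.14 with the combination.

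Of 12 genes for IL-1 family cytokines and for the receptors, 8 were tested. After TBI, 4 of these rose, beside 26.6% of all genes: Il1a, Il1rn, Il33 and Il1r1. The natural antagonist Il1rn went from 0.0126 ± 0.0252 to 2.75 ± 1.64 TPM (1.76 ± 0.25, adjusted p = 1.94e-06). Il1b, the main substrate of caspase-1, was low at 0.256 ± 0.14 TPM in sham and 0.538 ± 0.164 TPM with vehicle, and its difference of 0.29 ± 0.14 was not called (adjusted p = 0.0767). With PLX3397 only Il1a fell (-0.42 ± 0.10, adjusted p = 0.00718), and with the combination Il1a and Il1rn fell (-0.62 ± 0.10, adjusted p = 6.72e-05, and -0.77 ± 0.24, adjusted p = 0.0257). Il1b had its highest mean with PLX3397, 0.906 ± 0.402 TPM, which was not called against vehicle (0.29 ± 0.13, adjusted p = 0.174). Against sham, 7 of the 8 genes were higher with PLX3397 (22.7% of all genes), 5 with Anakinra (25.1%) and 5 with the combination (20.7%). The receptor chains of IL-18 were too low to be tested, at 0.0744 ± 0.054 TPM for Il18r1 and 0.495 ± 0.118 TPM for Il18rap with vehicle. Ifng, which IL-18 induces in lymphocytes, was listed at 0 in all vehicle and sham libraries.

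**Figure D5:**
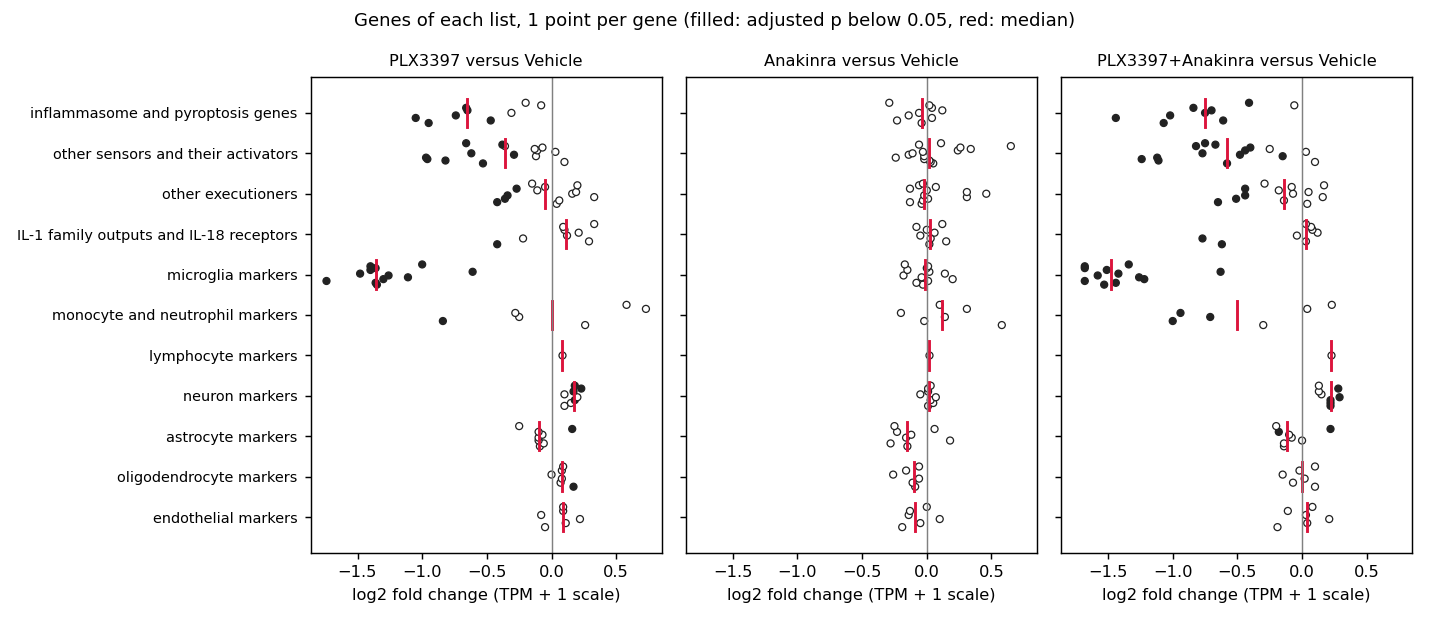
Log2 fold change against vehicle of each tested gene in the 9 pathway genes, 3 further lists and 7 lists of cell type markers, with filled points at an adjusted p below 0.05 and the median in red. With PLX3397 the median is -0.65 for the 9 genes and -1.35 for the microglia markers. No point of any list is filled with Anakinra, where 0.116% of all genes were called.

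The genes most like each of the 9 were found by the root mean square difference of log2(TPM + 1), centred on each gene, over the 24 libraries. Pycard, whose own values spread by 0.957 in this measure, was nearest to Unc93b1 (0.136), Vav1 (0.139) and Dock2 (0.142). Casp8 (0.655) was nearest to Tmem173 (0.136), Arhgdib (0.144) and B2m (0.146). Nlrp3 (0.551) was nearest to Nfam1 (0.146), Ccdc88b and Arhgap4. Casp4 (0.696) had Fgl2 (0.169), Tgif1 and Anxa4 as its nearest genes, Gsdmd (0.627) had Rnaset2a (0.151), Ecscr and Tgfbr2, and Casp1 (0.610) had Milr1, Lgmn and Il10rb at 0.203 to 0.205. For Aim2 (0.362) they were Ptbp3 (0.099) and Txnip (0.116). Il18 and Il18bp spread little, by 0.150 and 0.285, and their nearest genes were Snx1 (0.088) and Gna13 (0.129). All these genes share the same 24 libraries and the same contrast of injured with sham tissue.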

How the data were processed

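The authors trimmed paired-end 150-cycle reads, mapped them to mm10 (GRCm38) in CLC Genomics Workbench and deposited TPM per gene, with 1 library per mouse and no pooling. The full table (36333 genes) was used. A copy rounded to 3 decimals differed by at most 0.00076 TPM. A filtered table also holds p and F values of the authors' own tests and was not used. Groups follow the treatment label of each mouse, no mouse was left out, and p-values measure the spread between mice. Counts cannot be had from TPM, so no count test was run.

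Genes that averaged 0.5 TPM or more (17267) were tested on log2(TPM + 1) in limma 3.58.1 (R 4.3.3), with all libraries in one fit, no covariate, a variance trend and Benjamini-Hochberg adjustment over all genes tested. Every adjusted p is two-sided and comes from this fit, or from the same model under the alternative named beside it. The code for the calls was tested on simulated data, in which genes varied independently and some genes were changed in the PLX3397 group only. The real genes do not vary independently and many differ with injury, so this does not show how reliable the calls on the real data are. Figures and summaries were made in Python 3.11.15. The named genes are the 9 members, the genes of the fixed lists, and the 3 nearest genes of each member, and some genes of these are not reported here. Members and lists were chosen with earlier results of these data known. Alternatives were a pseudocount of 0.1, no filter on low values, median-ratio scaling, only the compared groups, no variance trend, the study's criteria, a replicate block and leaving out each mouse in turn.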

Additional observations from a re-analysis of the deposited data

Results flagged for a closer look

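Of the 45 sets of values formed by 9 genes in 5 groups, 1 held a mouse far from the others. Il18 was at 32.5 TPM in the PLX3397 mouse J19, where the next mouse had 26.5 TPM, so that the gap took 0.816 of the range of the group. Chance flags about 1 in 20 such groups. Without this mouse, the log2 fold change of Il18 against vehicle was -0.15 (adjusted p = 0.12) in place of -0.08 (adjusted p = 0.493), both from limma and both without a call.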

How the results depend on the processing

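Of 2961 values recomputed for single genes under 31 settings, 2882 kept their direction and side of the threshold, 45 lost and 12 gained a call, and 22 changed sign. The study's criteria (unadjusted p below 0.05, a ratio of mean TPM above 2 and a difference above 4 TPM) accounted for 42 of the lost calls, since, for example, Nlrp3, Aim2 and Casp4 differed between vehicle and sham by less than 4 TPM and Il18 and Il18bp by less than 2-fold. They left 4 genes for vehicle against sham, 3 for PLX3397, 4 for Anakinra and 1 for the combination against sham, 1 for PLX3397 and 2 for the combination against vehicle, and 2 for the combination and 1 for PLX3397 against Anakinra. The unadjusted p was that of limma and not of the study's own tests. The share of all genes that met these criteria was not computed, so these counts cannot be set against it. Without each mouse in turn, the counts were 8 to 9 for PLX3397 against sham, 6 to 7 for PLX3397 against vehicle and 6 to 7 for the combination against Anakinra, and the other counts stayed as they were.

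Nlrp3 in PLX3397 against sham was called under 11 of 29 settings, with adjusted p from 0.0156 (pseudocount 0.1, log2 fold change 0.54) to 0.13. Gsdmd in PLX3397 against vehicle and Aim2 in the combination against Anakinra lost their call with only the compared groups in the fit (adjusted p of 0.0634 and 0.0515). The cause was not tested. All changes of sign came from leaving out 1 mouse where the difference was near 0 and not called. Over these runs the log2 fold change for Anakinra against vehicle was -0.16 to 0.01 for Casp4, -0.05 to 0.09 for Gsdmd, -0.02 to 0.05 for Il18, -0.13 to 0.04 for Nlrp3 and -0.04 to 0.11 for Pycard. For the combination against PLX3397 it was -0.14 to 0.04 for Casp8 and -0.02 to 0.08 for Il18, and the interaction was -0.04 to 0.06 for Il18 and -0.16 to 0.02 for Nlrp3.

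Vehicle and PLX3397 mice share 3 animal numbers, and number 17 occurs with vehicle and the combination. The deviations of the 3 pairs correlated by 0.17, -0.13 and -0.07, and no label says that a number marks a shared source, so the mice were not treated as pairs. The correlation within a shared number that limma estimated over all genes was 0.247. With these numbers as a replicate block, 6 of the 9 genes were called in PLX3397 against vehicle, as without it, and 2455 genes in all in place of 1707. The depth of the libraries is unknown, and 4 or 5 mice per group limit what differences could be seen.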
